A study of Mus musculus with 50 samples.

Results

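The core circadian clock genes *Arntl* (encoding BMAL1), *Clock*, *Per1*, *Per2*, *Per3*, *Cry1*, *Cry2*, *Nr1d1* (REV-ERBα), *Nr1d2* (REV-ERBβ) and *Dbp* were examined library by library in developing mouse frontal cortex. These 10 members were chosen by name, were found among the files' gene identifiers through the GENCODE vM21 annotation, and are 10 of the 16330 protein-coding genes that passed the filter on low counts. None was lost to that filter. In the clock, BMAL1 and CLOCK bind together to E-box sequences and switch on the *Per* and *Cry* genes, whose proteins return to the nucleus and repress that pair. BMAL1 and CLOCK also drive *Nr1d1* and *Nr1d2*, repressors that compete with ROR activators at the *Arntl* promoter, and *Dbp*, an output factor that binds D-boxes in genes such as the *Per* family. In an adult animal under a light-dark cycle this loop makes *Arntl* messenger RNA peak at the opposite phase to *Dbp* and the *Per* genes, in the cortex as in most tissues, under the lead of the suprachiasmatic nucleus.

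The series holds 50 libraries of polyadenylated RNA from frontal cortex, 5 of mice labelled wild-type (WT) and 5 of mice labelled heterozygous (Het) at each of 5 ages, the embryonic E14 and E18 and the postnatal P7, P35 and P70. Het mice carry 1 copy of a knockout-first loss-of-function (tm1d) allele of *Setd1a*, a histone methyltransferase gene, and WT mice are their unaltered counterparts from matings of heterozygous males with wild-type females. The labels name the strain C57BL/6NTac, the study's methods a mixture of C57BL/6NTac and C57BL/6J, and the methods also call the mice male, give slightly later embryonic ages than the labels, describe the embryonic tissue as frontal brain regions, and mention littermates, so that mice of 1 group may share a litter. A light-dark cycle is stated, but the clock time at which each mouse was taken is not given in the sources used here. Total counts per library ranged from 35507165 to 43907318. *Setd1a* itself was called higher, not lower, in libraries labelled Het (log2 fold change across ages 0.10, standard error 0.03, adjusted p = 0.00679 by edgeR); a gene-level count does not resolve the altered exons and so checks no label. WT replicate 5 at E14 and WT replicate 2 at E18 held *Xist* counts of 60159 and 55644, against at most 27 in the other 48 libraries, and summed counts of 4 Y-linked genes of at most 11, against at least 4711, which goes against the male sex given in the methods. WT replicate 2 at P7 stood apart, with summed choroid plexus markers (3 of 3 tested) at 608 CPM, counts scaled to library size, against 1.19 to 2.10 in the other 9 P7 libraries, and summed cortical neuron markers (6 of 6) at 714 CPM against 1352 to 1530. Choroid plexus markers also varied among libraries before birth, from 0.38 to 443 CPM at E14 and 0.90 to 227 at E18. At E18 the WT libraries ran from 2.0 to 227 CPM and the Het libraries from 0.90 to 2.77. The highest sum at P70 was 34.1 CPM, in a Het library. In bulk tissue, fewer cells of a type and less RNA per cell cannot be told apart. Cortical markers were present in every group, and of 4 markers of the suprachiasmatic nucleus and hypothalamus, *Hcrt* was not tested, *Avp* averaged at most 0.25 CPM in any group *Pomc* at most 2.25 CPM, and *Vip*, which cortical interneurons also express, reached 38.3 CPM in Het libraries at P70.

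On GRCm38, *Arntl* lies at chr7:113207465-113314126, *Clock* at chr5:76209868-76304792, *Per1* at chr11:69095217-69109960, *Per2* at chr1:91415982-91459324 and *Per3* at chr4:151003652-151044665. *Cry1* lies at chr10:85131700-85185064, *Cry2* at chr2:92403646-92434043, *Nr1d1* at chr11:98767932-98775333, *Nr1d2* at chr14:18204054-18239127 and *Dbp* at chr7:45705088-45710203. Counting ignored strand and credited a fragment to every gene whose exons it touched. This matters for a pair of members. The exons of *Dbp* share 18.01% of their bases with *Sphk2* on the opposite strand, and those of *Nr1d1* share 8.55% with the far more abundant *Thra* (mean 33994 counts per library against 9872 for *Nr1d1*), so part of each of these counts may belong to the neighbour. *Cry2* shares 4.67% with *D930015M05Rik* and *Arntl* 0.439% with *Gm45355*, and the other 6 members share none.

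Compared per length of exon, as RPKM, reads scaled for exon length and library size, *Nr1d1* had the highest level at each age, and *Per3* the lowest at E14, E18, P7 and P70. Part of the *Nr1d1* and *Dbp* levels may belong to *Thra* and *Sphk2*, whose exons they overlap, and that part was not measured. At E14, over the 10 libraries of both genotypes, *Nr1d1* stood at 46.7 ± 9.82 RPKM (SD), *Cry1* at 7.60 ± 0.52, *Per1* at 6.90 ± 0.97, *Cry2* at 6.85 ± 0.72, *Per2* at 3.28 ± 0.42, *Clock* at 3.13 ± 0.22, *Nr1d2* at 2.80 ± 0.22, *Dbp* at 2.63 ± 0.27, *Arntl* at 1.72 ± 0.08 and *Per3* at 0.91 ± 0.16. The neighbours *Cry1* and *Per1*, *Per1* and *Cry2*, *Per2* and *Clock*, and *Nr1d2* and *Dbp* differed by less than the larger SD of each pair. At P70, *Nr1d1* stood at 92.2 ± 6.93 RPKM, *Cry2* at 25.0 ± 1.92, *Per1* at 22.2 ± 5.88, *Dbp* at 21.8 ± 6.42, *Nr1d2* at 17.2 ± 1.14, *Per2* at 9.68 ± 3.87, *Clock* at 6.96 ± 0.44, *Cry1* at 6.44 ± 1.22, *Arntl* at 6.10 ± 0.82 and *Per3* at 5.37 ± 0.52. There each neighbour in the order from *Cry2* to *Nr1d2*, and again from *Per2* to *Per3*, differed by less than the larger SD of the pair, whereas *Nr1d1* and the step between *Nr1d2* and *Per2* did not. *Cry1* had moved from the second place to the eighth and *Dbp* from the eighth to the fourth.

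The first question was how each arm of the clock changes as the cortex matures. *Arntl*, the activator without which the loop stops, rose at 3 of the 4 steps between successive ages, and *Clock*, its partner, fell slightly before birth and then rose. *Arntl* ranged from 12.2 to 14.3 CPM at E14, 19.04 to 23.4 at E18, 29.6 to 33.8 at P7, 24.5 to 35.8 at P35 and 35.6 to 54.7 at P70. Its log2 fold changes averaged over genotypes were 0.72 (standard error 0.07, adjusted p = 4.46e-13) from E14 to E18, 0.54 (0.07, adjusted p = 6.57e-10) to P7, 0.00 (0.07, adjusted p = 0.985) to P35 and 0.57 (0.06, adjusted p = 7.93e-08) to P70, by edgeR's quasi-likelihood test adjusted over all 16330 genes. *Arntl* thus had separate ranges at E14, E18 and P7 and gained a further 1.48-fold between P35 and P70, where the ranges of the ages met. *Clock* ranged from 39.3 to 49.0 CPM at E14, 32.2 to 41.8 at E18, 44.9 to 52.0 at P7, 78.7 to 94.9 at P35 and 82.3 to 105 at P70. Its largest step was the 1.81-fold rise from P7 to P35 (log2 0.85, standard error 0.04, adjusted p = 4.48e-23), at which no library of the 2 ages overlapped.

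Of the *Per* genes of the negative limb, *Per1* and *Per2*, which light and neuronal activity also induce, rose mainly between P7 and P35. *Per1* ranged from 32.1 to 50.2 CPM at E14, 47.7 to 54.6 at E18, 40.3 to 58.8 at P7, 74.0 to 199 at P35 and 69.1 to 166 at P70. *Per2* ranged from 16.5 to 24.3 CPM at E14, 18.4 to 23.9 at E18, 15.0 to 17.6 at P7, 24.2 to 64.0 at P35 and 23.4 to 80.4 at P70. In both genes every P35 library exceeded every P7 library, and the libraries of P35 and of P70 were spread far more widely than those of any earlier age. The rise from P7 to P35 was 2.20-fold for *Per1* (log2 1.14, standard error 0.13, adjusted p = 2.66e-10) and 2.58-fold for *Per2* (log2 1.37, standard error 0.18, adjusted p = 7.82e-09). *Per2* had a log2 fold change of -0.35 from E18 to P7 (standard error 0.18, adjusted p = 0.0844), where its ranges did not overlap, and the call there depends on the scaling and on which libraries estimate the spread: scaled by library size alone it was -0.39 (adjusted p = 0.0446), and in a fit of the 20 libraries of E18 and P7 alone, chosen after the spread had been seen, it was -0.38 (adjusted p = 1.5e-07). *Per3*, which had the lowest level of the family per exon length (RPKM) at each age, rose at both the second and the third step, from 6.22 to 9.72 CPM at E18 to 17.2 to 24.8 at P7 and 50.4 to 71.8 at P35, 2.65-fold and 2.91-fold (adjusted p = 6.77e-18 and 4.30e-20). From P35 to P70 *Per3* fell by 0.26 on the log2 scale (adjusted p = 0.0497), a call at the edge of the threshold that was lost in 35 of the 50 fits that each left out 1 library (adjusted p up to 0.1).

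The cryptochromes, the *Per* proteins' partners and the stronger repressors of BMAL1 and CLOCK, went in opposite directions after birth. *Cry2* ranged from 36.5 to 50.3 CPM at E14, 52.1 to 61.2 at E18, 89.3 to 108 at P7, 143 to 177 at P35 and 136 to 169 at P70, rising 1.31-fold, 1.81-fold and 1.52-fold at the first 3 steps (adjusted p = 1.39e-09, 2.60e-20 and 1.81e-15) and not between P35 and P70 (log2 0.01, standard error 0.05, adjusted p = 0.926). *Cry1* ranged from 22.4 to 28.1 CPM at E14, 29.1 to 34.8 at E18, 20.8 to 25.4 at P7, 13.3 to 27.04 at P35 and 15.5 to 27.1 at P70. It rose 1.28-fold to E18 (adjusted p = 0.000413) and then fell by 0.47 (adjusted p = 7.67e-06) and 0.46 (adjusted p = 1.43e-05) on the log2 scale to P7 and P35, and *Cry1* was the only member whose mean level was lower at P70 than at E14. From P35 to P70 its log2 fold change was 0.33 (standard error 0.09, adjusted p = 0.0131), and in a fit of the libraries of those 2 ages alone the adjusted p was 0.0578. Per length, *Cry1* and *Cry2* stood at 7.60 and 6.85 RPKM at E14 and at 6.44 and 25.0 RPKM at P70.

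Promoter windows of RefSeq start sites, from 250 bases before the start to 50 bases after it, were at hand for 9 members in 13 windows (GRCm38.p6). The windows of *Cry1*, *Per1* and *Per3* are shown because they hold the most matches to the elements named above. Capitals mark the matches, on either strand, to the E-box CACGTG, the E-prime box CACGTT, the D-boxes TTATGTAA and TTATGCAA and the core AGGTCA that RORs and REV-ERBs recognise, and the reverse complement of each is searched too.

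*Cry1*, chr10:85185005-85185304, minus strand: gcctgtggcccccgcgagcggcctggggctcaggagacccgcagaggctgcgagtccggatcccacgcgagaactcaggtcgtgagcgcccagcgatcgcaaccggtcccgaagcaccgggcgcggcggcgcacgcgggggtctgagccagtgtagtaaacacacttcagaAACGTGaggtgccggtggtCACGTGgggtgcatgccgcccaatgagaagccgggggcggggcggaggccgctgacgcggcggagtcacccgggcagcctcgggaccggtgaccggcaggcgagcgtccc

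*Per1*, chr11:69098699-69098998, plus strand: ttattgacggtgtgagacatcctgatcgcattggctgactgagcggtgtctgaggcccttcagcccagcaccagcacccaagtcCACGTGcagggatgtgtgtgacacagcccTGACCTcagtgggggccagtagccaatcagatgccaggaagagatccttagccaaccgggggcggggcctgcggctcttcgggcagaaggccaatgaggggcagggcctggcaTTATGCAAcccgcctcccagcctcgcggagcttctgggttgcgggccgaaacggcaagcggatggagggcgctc

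*Per3*, chr4:151044616-151044915, minus strand: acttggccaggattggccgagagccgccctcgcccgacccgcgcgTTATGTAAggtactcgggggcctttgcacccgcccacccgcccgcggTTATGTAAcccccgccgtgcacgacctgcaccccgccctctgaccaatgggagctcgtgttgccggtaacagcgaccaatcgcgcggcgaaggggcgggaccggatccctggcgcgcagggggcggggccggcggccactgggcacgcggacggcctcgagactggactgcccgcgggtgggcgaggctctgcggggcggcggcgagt

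The E-box was found in 2 of the 13 windows (*Cry1*, *Per1*) against 7.15% of all 32851 windows in the table, and the E-prime box in 3 (*Cry1*, *Cry2*, *Nr1d1*) against 4.68%. The D-boxes were found in 2 (*Per1*, and in 2 places in *Per3*) against 1.66%, the ROR and REV-ERB core in 4 (1 window each of *Arntl*, *Clock*, *Nr1d2* and *Per1*) against 16.3%, and the cAMP response element TGACGTCA in 0 against 1.79%. These are matches of letters in short windows, not measured binding.

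*Nr1d1* and *Nr1d2*, the paired repressors of the stabilising loop, followed different courses. *Nr1d2* stayed low before birth, from 13.7 to 17.01 CPM at E14 and 13.8 to 20.6 at E18, and then ranged from 40.8 to 47.3 CPM at P7, 85.3 to 119 at P35 and 81.99 to 101.6 at P70. Its 2.71-fold rise to P7 (log2 1.44, standard error 0.06, adjusted p = 7.68e-25) and 2.40-fold rise to P35 (log2 1.26, standard error 0.06, adjusted p = 1.13e-23) had the smallest p of the members at those steps. *Nr1d1* rose earlier, from 115 to 216 CPM at E14 to 223 to 292 at E18 and 276 to 383 at P7 (log2 0.88 and 0.41, adjusted p = 1.27e-14 and 2.13e-06), and then fell by 0.24 (adjusted p = 0.00312) to P35. *Thra*, whose exons it overlaps, moved in the same directions at these steps, by 0.82, 0.30 and -0.63 on the log2 scale, and what part of the *Nr1d1* counts came from *Thra* was not tested.

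*Dbp*, the output factor, rose most. It ranged from 6.48 to 9.41 CPM at E14, 8.02 to 11.9 at E18, 16.3 to 26.2 at P7, 79.7 to 150 at P35 and 42.9 to 96.2 at P70. The 5.47-fold rise from P7 to P35 (log2 2.45, standard error 0.12, adjusted p = 3.95e-22) was the highest fold change of any member at any step, and no library of P7 came near those of P35. Between P35 and P70 *Dbp* then fell by 0.80 on the log2 scale (standard error 0.12, adjusted p = 1.16e-05), the reverse of *Arntl*, although single libraries of the 2 ages overlapped. *Sphk2*, which shares exon bases with *Dbp*, was at 36.7 ± 2.15 CPM at P7 and 66.9 ± 7.53 at P35 (SD, n = 10), a smaller rise (log2 0.87), and from P35 to P70 it fell by 0.26.

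**Figure D1:**
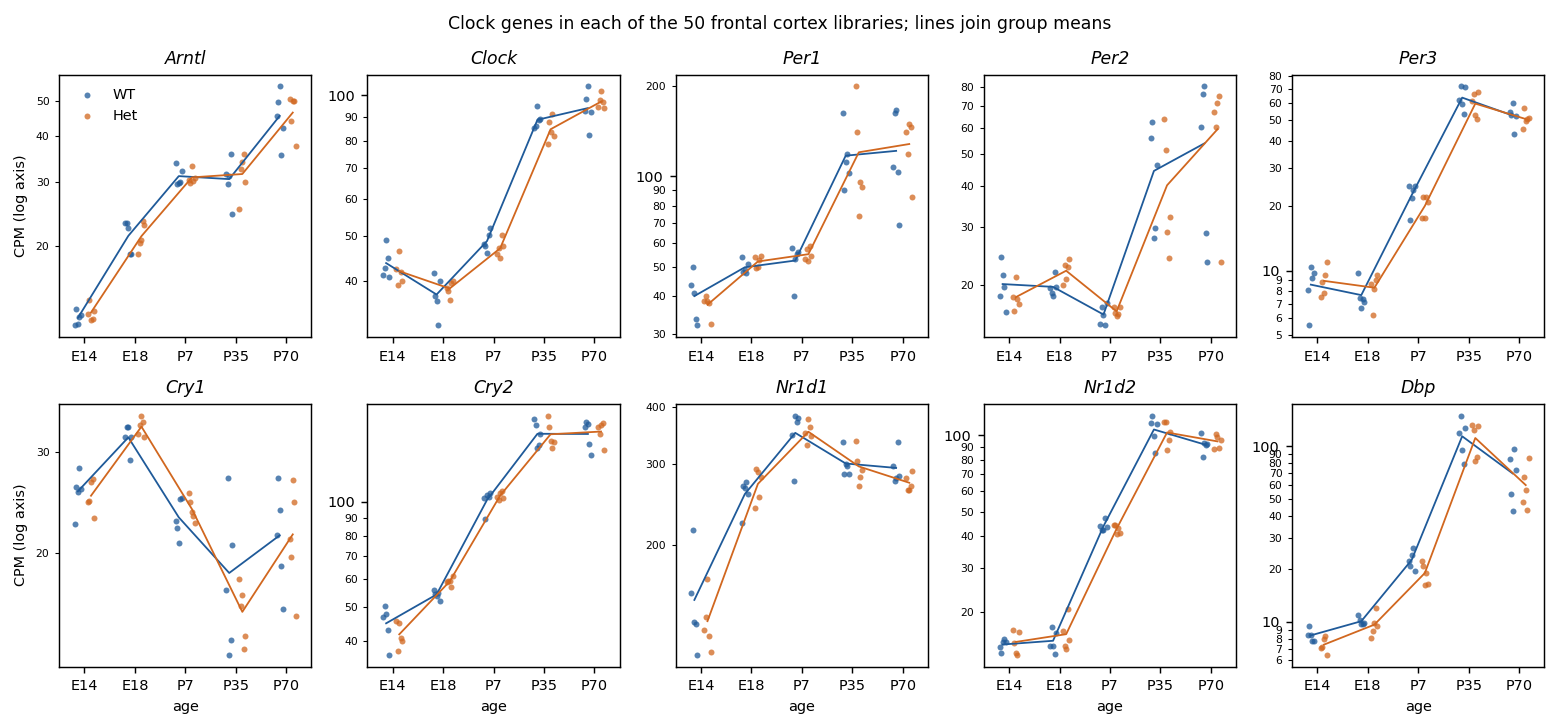
Level of each clock gene in CPM (log axis) in every library against age; each point is 1 mouse, blue for WT and orange for Het, and the lines join the 5-mouse group means. *Dbp*, *Per3* and *Nr1d2* climb most, *Cry1* declines from E18 to P35 and is higher again at P70, and the points of *Per1*, *Per2*, *Cry1* and *Dbp* fan out at P35 and P70, while the genotypes run together.

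Counted together, 6 members rose and 1 (*Clock*) fell from E14 to E18, against 36% and 37.4% of all tested genes, and 7 rose and 1 (*Cry1*) fell from E18 to P7, against 37.9% and 38.2%. From P7 to P35, 7 rose and 2 (*Cry1*, *Nr1d1*) fell, against 38% and 38.1%, and from P35 to P70, 3 rose (*Arntl*, *Clock*, *Cry1*) and 2 fell (*Dbp*, *Per3*), against 5% and 4.75%. Most genes thus changed at the first 3 steps and few at the last, where 5 of the 10 members were called. The median log2 fold changes of the members were 0.34, 0.47, 1.00 and 0.04 at the 4 steps, and those of all tested genes lay between -0.0025 and 0.00079. Within WT mice alone, 5, 8, 8 and 2 members were called at the 4 steps, against 65.9%, 67.3%, 67% and 1.06% of all genes, and within Het mice alone 5, 8, 9 and 4, against 64.5%, 67.8%, 67.8% and 2.98%. *Arntl* and *Dbp* were called from P35 to P70 within each genotype, with *Arntl* at log2 fold changes of 0.57 in WT and 0.56 in Het and *Dbp* at -0.70 and -0.89. Markers of cell types moved at the same steps. From E18 to P7, 5 of 5 astrocyte markers were called higher (median log2 fold change 0.84). From P7 to P35, so were 4 of 4 oligodendrocyte (4.48), 4 of 4 interneuron (1.37) and 3 of 3 microglia markers (1.11). All 4 markers of the striatum, a region next to the cortex, were called higher at this step too (2.24). Of 4 progenitor markers (median -1.77) 3 were called lower, and of 6 cortical neuron markers 2 rose and 3 fell. What part cell types or dissection play in the members' changes was not tested. Mice of different ages may also have been taken at different times of day, which cannot be told apart from age here.

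The list of 21 further clock genes, all tested, gave 10 that rose and 6 that fell from E14 to E18, 12 and 6 to P7, and 13 and 5 to P35. In all, 16, 18 and 18 of 21 were called, where 73.4%, 76.1% and 76.1% of all tested genes were. At the first step those with large called changes included *Npas2*, a CLOCK-like partner of BMAL1 (log2 fold change 2.69), and *Bhlhe40*, a repressor at E-boxes (1.87), and at the second the largest were in *Npas2* (1.80), the ROR activator *Rora* (1.59) and *Usp2* (1.56). At the third they included *Hlf*, a D-box factor related to *Dbp* (2.47), and *Bhlhe41* (1.85). From P35 to P70, 2 rose and 2 fell, so that 4 of 21 were called, where 9.74% of all tested genes were. Among them were *Nfil3*, the repressor that competes with DBP at D-boxes (0.54, adjusted p = 0.00353), *Ciart*, a repressor that cycles with the E-box genes (-0.78, adjusted p = 1.77e-05), and *Usp2* (-0.27, adjusted p = 0.0185). *Nfil3* thus moved with *Arntl*, and *Ciart* and *Usp2* with *Dbp*.

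The second question was whether loss of 1 *Setd1a* copy shifts these genes. By edgeR's quasi-likelihood test 0 of the 10 members were called between libraries labelled Het and WT across ages, against 4.43% of all tested genes, and 0 had an unadjusted p under 0.05; limma-voom and DESeq2 also called 0. At single ages 0 members were called, against 0.129% of genes at E14, 0.11% at E18 and, after birth, 0.735% in P7 mice, 0% at P35 and 0.233% at P70, with 0 at an unadjusted p under 0.05. The age by genotype interaction called 0 members, against 0% of all genes, and the smallest unadjusted p was 0.228 (*Cry2*). Across ages the log2 fold changes lay between -0.15 (*Dbp*) and 0.03 (*Per1*), 5 above and 5 below 0.

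How large a genotype effect could have gone unseen differed between members. An interval of 2 standard errors around the log2 fold change across ages ran from -0.07 to 0.03 for *Clock*, -0.05 to 0.08 for *Cry2*, -0.06 to 0.09 for *Nr1d2*, -0.06 to 0.10 for *Arntl*, -0.13 to 0.05 for *Nr1d1*, -0.14 to 0.09 for *Cry1*, -0.15 to 0.08 for *Per3*, -0.13 to 0.19 for *Per1* and -0.21 to 0.24 for *Per2*. That of *Dbp* ran from -0.30 to 0.003 (unadjusted p = 0.0554, adjusted p = 0.364). Its WT and Het means were 8.34 ± 0.68 and 7.39 ± 0.70 CPM at E14 (SD, n = 5), 10.05 ± 0.54 and 9.605 ± 1.44 at E18, 22.5 ± 2.69 and 18.9 ± 2.65 at P7, 114 ± 27.5 and 112 ± 24.5 at P35, and 70.1 ± 22.0 and 60.1 ± 16.8 at P70. The Het mean of *Dbp* was the lower at each age, and the groups overlapped at each.

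Groups of the 2 genotypes did not overlap for 1 member at 1 age, *Cry2* at E18, and for 0 members at the other ages; among all tested genes that share was 0.784% at E14 and 2.22% at E18, and after birth 2.23% in P7 mice, 2.25% at P35 and 1.79% at P70. The 5 E18 values of *Cry2* ran from 52.1 to 56.1 CPM (median 54.5) in WT and from 56.9 to 61.2 (median 59.2) in Het. The log2 fold change was 0.12 (standard error 0.07, adjusted p = 0.497), and at E14 it was -0.11, with the WT mean the higher. *Cry1* at P35 had the smallest unadjusted p of the members at that age (log2 fold change -0.23, standard error 0.13, unadjusted p = 0.086).

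**Figure D2:**
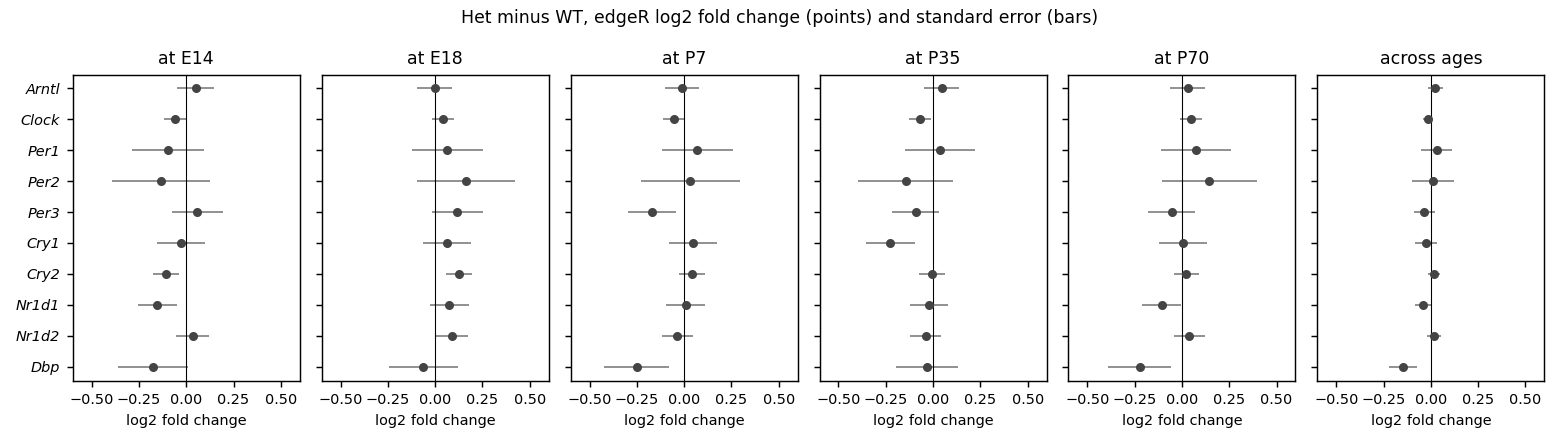
Log2 fold change of Het over WT for each clock gene at each age and across ages (x axis; points are edgeR estimates, bars 1 standard error). The estimates lie on both sides of 0, and only *Dbp* lies below 0 at every age, by 0.03 to 0.25, with 0 members called.

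The third question was how far mice of the same age and genotype differ. For *Per1*, *Per2*, *Cry1*, *Dbp* and, at lower values, *Arntl*, the SD was higher at P35 and P70 than at each earlier age. The within-group SD of log2 CPM of *Per2* was 0.17 at E14, 0.10 at E18 and 0.08 at P7, and then 0.56 at P35 and 0.76 at P70, more than 95.0% and 97.4% of tested genes at those last ages and 9.94 times its own P7 value at P70. Counting error accounts for an SD of 0.06 at P7 and 0.03 at P70. *Per1* had SDs of 0.46 and 0.44 at P35 and P70, *Dbp* 0.35 and 0.44 and *Cry1* 0.32 and 0.30, against at most 0.21 for each of these 3 at E14, E18 and P7. The median SD over all tested genes did not rise in this way, being 0.19 and 0.14 in the embryonic groups (E14, E18), 0.13 at P7, 0.10 at P35 and 0.13 in P70 mice. *Arntl* had SDs of 0.20 and 0.21 at P35 and P70, which are 2.70 and 2.91 times its P7 value, against 0.07 at E14, 0.13 at E18 and 0.07 at P7. *Nr1d2* had 0.18 at both E18 and P35 and 0.10 at P70, and *Cry2* 0.12 at P35 and P70, below its 0.15 at E14. *Clock* stayed between 0.07 and 0.11 at each age, and *Nr1d1* (0.11 and 0.09) and *Per3* (0.19 and 0.15) were not more spread at P35 and P70 than at E14.

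The values of *Per2* show it. At P7 the 5 WT libraries held 15.2, 17.1, 16.2, 15.0 and 17.6 CPM and the 5 Het libraries 17.1, 16.4, 16.02, 16.3 and 17.04 CPM, in the order of replicates 1 to 5, the order used for all lists of values. At P35 the WT libraries held 55.8, 62.5, 27.6, 29.7 and 46.5 CPM and the Het libraries 64.0, 51.4, 29.0, 24.2 and 32.3 CPM. At P70 the WT libraries held 60.6, 76.3, 80.4, 28.7 and 23.5 CPM and the Het libraries 67.0, 60.7, 71.5, 74.98 and 23.4 CPM. At P70, 7 mice thus lay at 60.6 CPM or above and 3 (WT replicates 4 and 5, Het replicate 5) below 30, with none between, and mice of each genotype stood on both sides.

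**Figure D3:**
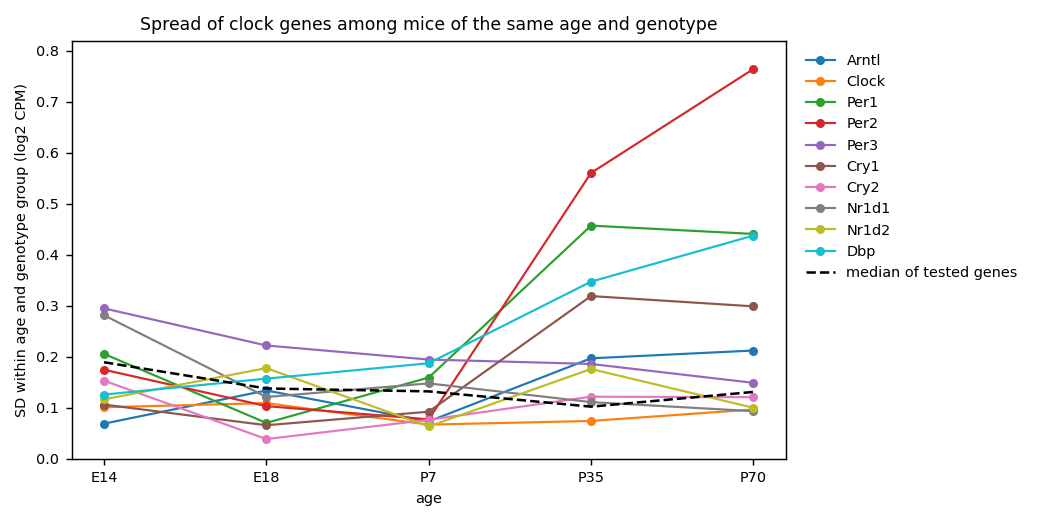
Within-group SD of log2 CPM (y axis) at each age for the 10 clock genes (coloured lines) and the median of all tested genes (dashed line). *Per2*, *Per1*, *Dbp* and *Cry1* rise well above the dashed line at P35 and P70, while *Clock* lies below it at each age.

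The fourth question was which members vary together among mice of a group. Deviations of log2 CPM from the mean of the library's own age and genotype group were correlated over the 50 libraries for all 45 pairs, with a permutation test that shuffled within groups (100000 resamples, smallest possible p 1e-05) and Benjamini-Hochberg adjustment over the 45. By Pearson's r, 11 pairs were called, and by Spearman's rho 9, of which 8 were among the 11. Of the 11, 5 join *Per* and *Cry* genes, 3 join members among *Arntl*, *Dbp*, *Per3* and *Nr1d2* with each other, and 3 join *Nr1d1* to another member.

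Among the *Per* and *Cry* pairs, *Per2* and *Cry2* had r = 0.74 and rho = 0.75 (adjusted permutation p = 0.000225 for each), *Per2* and *Cry1* r = 0.76 and rho = 0.56 (adjusted permutation p = 0.00075 and 0.0167), *Per1* and *Cry2* r = 0.71 and rho = 0.68 (0.000225 for each), *Per1* and *Per2* r = 0.71 and rho = 0.50 (0.00576 and 0.039), and *Cry1* and *Cry2* r = 0.52 and rho = 0.45 (0.00855 and 0.0395). Without the 2 libraries farthest from the median of the first-named gene, these r were 0.70, 0.68, 0.65, 0.62 and 0.48. At P70 the WT libraries of *Cry2* held 163.7, 169, 167, 147 and 136 CPM and its Het libraries 163.98, 156, 166, 168 and 141 CPM, the 3 lowest being the 3 mice lowest in *Per2*. At P35 they held 173, 166, 143, 146 and 156 CPM in WT and 177, 163.7, 149, 143 and 148 CPM in Het. The r of *Per2* and *Cry2* was 0.97 at P35 and 0.98 at P70 but -0.32 at P7 (10 libraries each, with no test), and 0.73 over the libraries of E14 and E18. That of *Per2* and *Cry1* was 0.75 at P35, 0.91 at P70, 0.02 at P7 and 0.07 over E14 and E18.

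*Cry1* and *Per1* shared their lowest mice at P70. *Cry1* held 21.5, 27.1, 23.8, 18.99 and 15.9 CPM in WT and 21.2, 19.7, 26.8, 24.6 and 15.5 CPM in Het at P70, and *Per1* held 107, 162.2, 166, 103 and 69.1 CPM in WT and 141, 119, 149, 146 and 85.2 CPM in Het. Het replicate 5 and WT replicate 5 were the lowest 2 libraries for both genes. At P35, *Per1* held 162.3, 90.4, 111, 118 and 103 CPM in WT and 199, 140, 74.0, 95.8 and 92.1 CPM in Het, and *Cry1* held 17.2, 27.04, 13.3, 14.1 and 20.6 CPM in WT and 17.98, 16.1, 16.8, 13.6 and 14.3 CPM in Het. The r of this pair was -0.06 at P35 and 0.93 at P70 (10 libraries each, with no test), and it was called neither over the 50 libraries (0.36) nor over the 20 of P35 and P70 (0.41).

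In the next 3 pairs, *Arntl* and *Dbp* varied in opposite directions, with r = -0.62 and rho = -0.49 (adjusted permutation p = 0.00576 and 0.0314), and r = -0.56 without the 2 farthest libraries. *Dbp* and *Nr1d2* had r = 0.48 and rho = 0.47 (adjusted permutation p = 0.00913 and 0.0246), and *Per3* and *Nr1d2* r = 0.42 and rho = 0.42 (0.0244 and 0.0395). At P70 *Arntl* held 45.5, 49.5, 54.7, 35.6 and 41.98 CPM in WT and 50.6, 44.1, 49.9, 49.9 and 37.5 CPM in Het, and *Dbp* held 85.0, 53.2, 42.9, 96.2 and 73.3 CPM in WT and 48.3, 66.5, 56.3, 43.6 and 85.9 CPM in Het. The mice highest in *Dbp* within each genotype (WT replicate 4, Het replicate 5) were the lowest in *Arntl*. At P35 *Arntl* held 31.6, 29.6, 31.1, 35.8 and 24.5 CPM in WT and 25.3, 32.6, 34.0, 35.7 and 30.03 CPM in Het, and *Dbp* held 119, 150, 94.8, 79.7 and 128 CPM in WT and 132.7, 125, 83.0, 87.0 and 130.8 CPM in Het. The r of *Arntl* and *Dbp* was -0.72 at P35 and -0.92 at P70, -0.51 at P7, and 0.41 over the 20 embryonic libraries. *Sphk2*, which shares exon bases with *Dbp*, had r of -0.47 with *Arntl* and 0.235 with *Nr1d2* over the 50 libraries. Over those of P35 and P70 these values were -0.68 and 0.73. Whether *Sphk2* counts play a part in the *Dbp* relations was not tested.

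The remaining 3 called pairs involve *Nr1d1*, with r of 0.50 with *Cry2*, 0.36 with *Per1* and 0.28 with *Dbp* (adjusted permutation p = 0.0338, 0.0338 and 0.0453). None of the 3 was called by rho (0.34, 0.26 and 0.26, with adjusted permutation p = 0.139, 0.23 and 0.23), without the 2 libraries with *Xist* counts none of the 3 was called (adjusted permutation p = 0.0666 for each), and without WT replicate 2 of P7 all 3 lost their call (adjusted permutation p = 0.13, 0.121 and 0.0628). *Per3* and *Nr1d1* had r = -0.46 (adjusted permutation p = 0.0636) and rho = -0.42 (0.0395), and without that library r = -0.64 (adjusted permutation p = 0.00375). The r of *Nr1d1* and *Cry2* was 0.97 at P7, where WT replicate 2 was the lowest library in both, 0.68 at P35 and -0.45 at P70 (10 libraries each, with no test), and 0.17 over P35 and P70. Over the 50 libraries *Thra*, which shares exon bases with *Nr1d1*, had r of 0.55 with *Cry2*, 0.35 with *Per1* and 0.15 with *Dbp*. What part of the *Nr1d1* relations came from *Thra* counts was not tested.

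The pairs were also taken over the younger and the older libraries apart. Over the 30 libraries of E14, E18 and P7, 0 pairs were called, and over the 20 libraries of P35 and P70, 11 were, 8 of which were among the 11 called over all libraries. In those 20 libraries r was 0.96 for *Per2* and *Cry2*, 0.82 for *Per2* and *Cry1*, 0.80 for *Per1* and *Cry2*, 0.79 for *Cry1* and *Cry2*, 0.76 for *Per1* and *Per2*, -0.83 for *Arntl* and *Dbp*, 0.70 for *Dbp* and *Nr1d2* and 0.68 for *Per3* and *Nr1d2*. *Arntl* and *Clock* (0.68, adjusted permutation p = 0.0221), *Clock* and *Dbp* (-0.64, adjusted permutation p = 0.0306) and *Clock* and *Nr1d1* (-0.64, adjusted permutation p = 0.0458) were called there in addition. In the 30 younger libraries the same pairs had r of 0.56, 0.06, 0.71, -0.02, 0.30, 0.12, 0.15 and 0.30 for the first 8. The difference between the age groups was not itself tested, and these subsets were chosen after the spread had been seen. When each deviation was divided by the SD of its gene at its age, 2 pairs stayed called, *Per1* and *Cry2* (r = 0.67) and *Per2* and *Cry2* (r = 0.53).

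**Figure D4:**
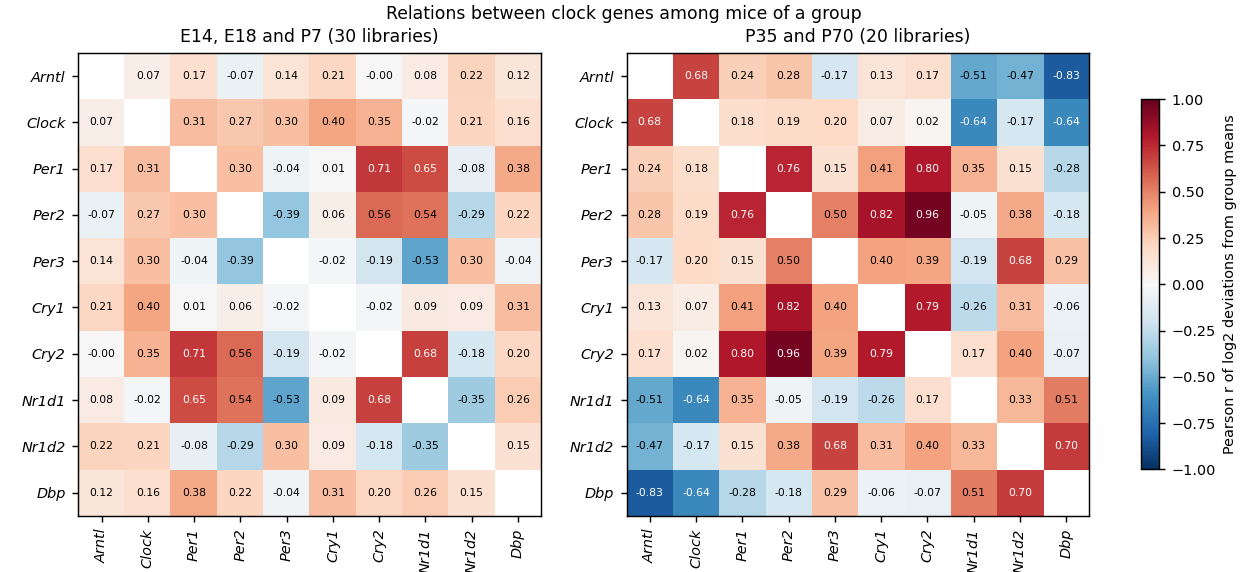
Pearson r of log2 deviations from group means for each pair of clock genes, in the 30 libraries of E14, E18 and P7 (left) and the 20 of P35 and P70 (right); red is positive and blue negative, and each cell gives its r. On the right *Per1*, *Per2*, *Cry1* and *Cry2* form a red block and *Arntl* and *Clock* are blue against *Dbp*; on the left *Arntl* and *Dbp* have r = 0.12.

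*Per2* was not related to *Arntl* and *Dbp* in the same direction at both ages. Over the 20 libraries of P35 and P70, r was 0.28 between *Per2* and *Arntl* and -0.18 between *Per2* and *Dbp*. Yet within P35 alone *Per2* and *Arntl* had r = -0.62, and within P70 alone r = 0.89, and *Per2* and *Dbp* had r = 0.83 at P35 and -0.77 at P70 (10 libraries each, a description with no test). At P70 the 3 mice low in *Per2* were the 3 lowest in *Arntl*, while at P35 the mouse highest in *Per2* (Het replicate 1, 64.0 CPM) was among the lowest 2 in *Arntl* (25.3 CPM).

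**Figure D5:**
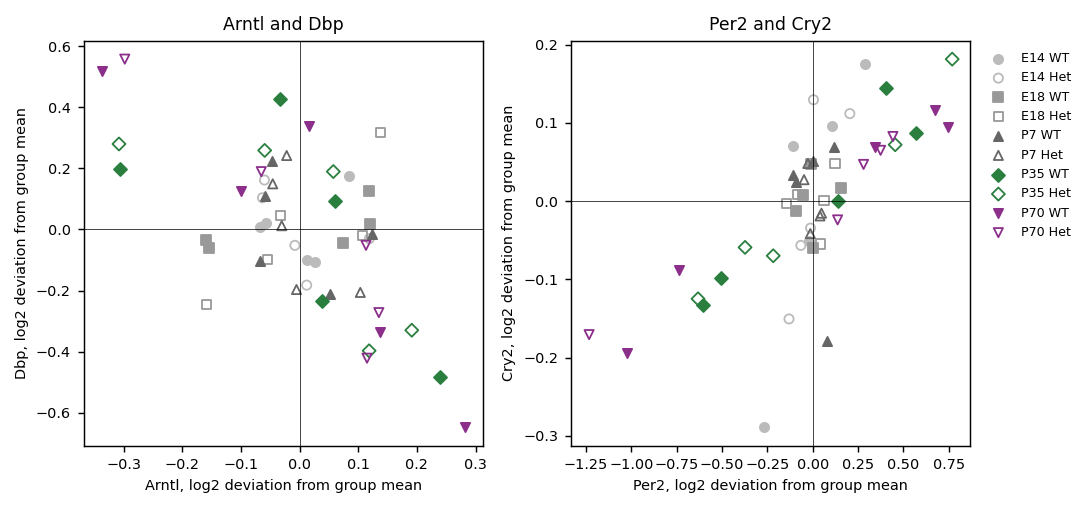
Log2 deviation of each library from its group mean, for *Arntl* against *Dbp* (left) and *Per2* against *Cry2* (right); each symbol is 1 of 50 libraries, filled for WT and open for Het, grey at E14, E18 and P7, green at P35 and purple at P70. The coloured symbols run along a falling line on the left (r = -0.83 at P35 and P70) and a rising line on the right (r = 0.96).

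Other genes varied with the members among the same mice. Over the 50 libraries, the genes outside the members with the highest r were *Trib2* (0.91), *Spred2* (0.86) and *Pfkfb3* (0.85) for *Per2*, *Dnajb5* (0.88), *Tet3* (0.87) and *Tnfrsf25* (0.87) for *Per1*, and *Tmem121b* (0.86), *Cacnb1* (0.83) and *Camk1g* (0.83) for *Cry2*. For *Cry1* they were *Rundc1* (0.73), *Spred1* (0.68) and *P4ha1* (0.66), for *Per3* *Cdh19* (0.66), *Pkd2* (0.64) and *Smc5* (0.63), and for *Clock* *Ino80d* (0.78), *Hook3* (0.76) and *Fcho2* (0.74). *Nr1d2* was nearest to *Tef* (0.59), which encodes another D-box factor, *Miga1* (0.59) and *5730480H06Rik* (0.59), and *Arntl* to *Krtcap3* (0.68), *Hyou1* (0.67) and *Pdia6* (0.67), the last pair being genes of protein folding in the endoplasmic reticulum. The neighbours of *Nr1d1* were *Thra* (0.94), *Rusc1* (0.88) and *Gng2* (0.87), and those of *Dbp* were *Sphk2* (0.66), *Eml2* (0.62) and *Slc22a3* (0.62); *Thra* and *Sphk2* share exon bases with them and so share counts. These are descriptions over libraries that share depth and dissection, picked as the highest of 16330 genes.

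The lists of induced genes are given beside the same shares of all tested genes, 73.4%, 76.1% and 76.1% called in either direction at the first 3 steps and 9.74% at the last. Of 10 activity-induced genes, 7 rose and 2 fell from E14 to E18, 8 and 1 to P7, 9 and 0 to P35, and 1 and 0 to P70, with the largest called changes in *Fosb* (log2 fold change 2.09), *Fos* (2.02) and *Egr2* (1.90), then *Egr2* (1.99), *Egr1* (1.94) and *Arc* (1.58), then *Arc* (3.35), *Egr1* (2.43) and *Fosb* (2.37), and last *Fosb* (1.13). The genes named for the first step started from very low levels. Their E14 means in WT and Het were 0.19 and 0.19 CPM for *Fosb*, 0.58 and 0.65 for *Fos*, and 0.13 and 0.19 for *Egr2*. Of 10 glucocorticoid-induced genes, 9 rose and 0 fell, then 5 and 2, 6 and 2, and 2 and 1, led by *Sgk1* (1.19), *Zbtb16* (0.90) and *Cdkn1a* (0.86), then *Fkbp5* (-1.01), *Cdkn1a* (0.93) and *Ddit4* (-0.89), then *Mt1* (2.99), *Mt2* (2.78) and *Zbtb16* (1.09), and last *Pdk4* (0.41), *Tsc22d3* (0.30) and *Ddit4* (-0.22).

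The activity-induced genes were set against the members among mice of a group. The summed level of the 10 activity-induced genes ranged from 76.8 to 91.4 CPM at E14, 74.4 to 100.2 at E18, 111 to 207 at P7, 283 to 1179 at P35 and 413 to 1656 at P70, and its log2 deviations had r = 0.83 with *Per1* at P35 and P70, against 0.49 with *Per2*, 0.53 with *Cry2*, 0.29 with *Cry1*, 0.335 with *Arntl*, 0.29 with *Clock*, 0.20 with *Nr1d1*, -0.215 with *Nr1d2*, -0.23 with *Per3* and -0.55 with *Dbp*. The single genes of the list differed: *Npas4* had r = 0.09 with *Per1* and 0.46 with *Clock*, and *Fosb* 0.64 with *Per1* and -0.66 with *Dbp*. The 10 glucocorticoid-induced genes summed to 283 to 315 CPM at E14, 335 to 411 at E18, 290 to 336 at P7, 395 to 481 at P35 and 390 to 568 at P70, with r = 0.49 with *Per1* and 0.53 with *Per2* in the same 20 libraries. There this sum had r = 0.48 with *Cry2*, 0.41 with *Cry1*, 0.15 with *Per3* and 0.14 with each of *Arntl* and *Clock*. With *Nr1d2* it had r = 0.03, with *Nr1d1* -0.03 and with *Dbp* -0.23. The single genes of this list differed too. With *Per2* in those libraries, *Tsc22d3* and *Zbtb16* each had r = 0.76, whereas *Mt1* had -0.11, *Ddit4* -0.10 and *Pdk4* -0.42. Among single clock genes outside the members, *Bhlhe40* had r = 0.94 with *Per1*, *Csnk1d* 0.89 with *Per2*, *Ciart* -0.86 with *Arntl* and 0.78 with *Dbp*, and *Nfil3* 0.75 with *Arntl* and -0.83 with *Dbp*, all at P35 and P70 and named after their values were seen. The 4 striatal markers (*Drd1*, *Drd2*, *Ppp1r1b*, *Adora2a*), all tested, summed to 286 to 687 CPM at P35 and 192.9 to 750 at P70, and had r = 0.50 with *Dbp* in those libraries and 0.62 at E14, E18 and P7, against -0.18 and 0.07 with *Arntl*. What part neuronal activity, glucocorticoids or dissection play in these relations was not tested.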

How the data were processed

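Polyadenylated RNA was sequenced in 1 batch, and the deposited values are the authors' raw counts: per the study's methods and the file headers, reads were trimmed with Trimmomatic, aligned to GRCm38 with STAR, and counted on exons of Ensembl 102 genes by featureCounts 1.4.6-p2 without strand, a fragment over several genes counting for each. Of 55487 genes, 55141 were matched to GENCODE vM21. Protein-coding genes were kept where 5 or more libraries reached the CPM that 10 counts make in a library of median size (16330 of 21897), scaled by TMM and fitted in edgeR 4.0.16 (R 4.3.3) by the quasi-likelihood method, with age as a covariate for the genotype effect, 4 joint terms for the interaction, and 10 groups for single ages and steps; p-values were adjusted by the Benjamini-Hochberg method over all tested genes and called under 0.05. CPM and RPKM use TMM library sizes, and log2 CPM a prior count of 2. The depth of 35507165 to 43907318 counts gave each member at least 205 counts in every library. The labels name replicates but not litters, so p-values measure the spread between these samples. No 2 libraries held identical counts. The models were tested on simulated data.

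Alternatives were limma-voom (limma 3.58.1), DESeq2 1.42.0, other scalings, filters and gene sets, a replicate block, a threshold of 0.01, and leaving out libraries; fits on the libraries of the ages compared, and pairs within age ranges or on deviations scaled by age, were added after seeing the data. The members and lists were chosen with earlier results of these data known. All 10 members are named throughout, with the 3 called genes of largest change per comparison from the other clock, activity and glucocorticoid lists, the 3 genes of highest r with each member, *Setd1a*, and genes that overlap a member's exons. One gene that this rule selects is not reported here. RNA integrity was not used. Promoter sequences are from RefSeq (GRCm38.p6); 9 of the 10 members matched.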

Additional observations from a re-analysis of the deposited data

Results flagged for a closer look

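Among 100 groups of 5 libraries (10 members in 10 groups), 6 held 1 library whose gap to the nearest of the others, over the range of the group, passed Dixon's 95% critical value of 0.71; chance gives about 1 in 20. *Per2* in Het replicate 5 at P70 stood at 23.4 CPM, against 60.7 to 74.98 in the other 4. In WT replicate 2 at P7, the library with high choroid plexus and oligodendrocyte markers, *Per1* stood at 40.3 CPM against 53.1 to 58.0 and *Cry2* at 89.3 CPM against 103 to 106. *Per1* stood at 32.5 CPM in Het replicate 5 at E14, with the next lowest at 38.16 CPM. *Arntl* stood at 33.1 CPM in Het replicate 3 at P7, against 29.9 to 30.7. *Nr1d1* stood at 223 CPM in WT replicate 1 at E18, against 259 to 274.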

How the results depend on the processing

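No member was called by genotype under any alternative run, in the tests across ages, at single ages and of the interaction, nor in any of the 50 fits that left out 1 library (0 to 0 members). Leaving out 1 library gave 6 to 8 members called from E14 to E18, 8 to 8 to P7, 9 to 9 to P35 and 4 to 6 to P70. At an adjusted p under 0.01, 2 members were called from P35 to P70 in place of 5. *Dbp* from E14 to E18 was not called by limma-voom (adjusted p = 0.165) or without Het replicate 4 of E18 (0.0577), nor *Clock* from P35 to P70 without WT replicate 3 of P70 (0.0617). *Per2* from P35 to P70 was called in 3 of the fits that left out 1 library, without Het replicate 1 of P35 (0.0477), WT replicate 5 (0.0353) or Het replicate 5 of P70 (0.0269). *Nr1d2* from P35 to P70 was called by limma-voom (0.0476), with scaling by library size alone (0.0471) and in 2 such fits (0.0345 without Het replicate 3 and 0.0230 without WT replicate 4 of P35), and *Per3* from E14 to E18 in 1, without WT replicate 2 of E14 (0.0407). The call of *Per3* from P35 to P70 was lost with DESeq2 size factors (0.0509), with every gene with any count (0.0596), with all annotated genes (0.0663) and in 35 of the 50 fits that left out 1 library (0.0503 to 0.1001), and that of *Cry1* with only the libraries of the ages compared (0.0578). *Per2* from E18 to P7 was called with scaling by library size alone (0.0446) and with only the libraries of the ages compared (1.50e-07). The number of pairs called was 0 over E14, E18 and P7 and 2 with deviations scaled by the SD of their age, in place of 11; it was 8 without the 2 libraries with *Xist* counts, 9 with scaling by library size alone and 9 without WT replicate 2 of P7, with 8 of the 11 pairs called in each, the other 3 being those with *Nr1d1*. Over E14, E18 and P7 the r of *Arntl* and *Dbp* was 0.12 and that of *Cry1* and *Cry2* -0.0193. The causes were not tested. With the replicate number as a block, 0 members were called by genotype. The labels do not say that the numbers pair the samples. Of 25 same-numbered pairs, 9 had a correlation of deviations over 0.1 (-0.20 to 0.46). Of 25 WT libraries, 7 were most like the Het library of their number. These values cannot settle whether same-numbered mice share a litter. Without WT replicate 2 of P7, the within-group SD at P7 was 0.06 for *Per1*, 0.03 for *Cry2* and 0.07 for *Nr1d1*. Counting error limits *Dbp* and *Per3* most, at an SD of up to 0.083 on the log2 scale before birth.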
